A study of Mus musculus with 8 samples.

Results

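Phosphorylase kinase turns on glycogen phosphorylase, the enzyme that releases glucose units from glycogen, when calcium rises or when protein kinase A phosphorylates it. The enzyme is built from equal copies of 4 kinds of subunit. The γ subunit carries the kinase activity, α and β hold it back until they are phosphorylated, and calmodulin is bound permanently as the calcium-sensing δ subunit. The muscle and liver forms of α are encoded by Phka1 and Phka2, and those of γ by Phkg1 and Phkg2, while Phkb encodes β in both tissues. These 5 genes, chosen by symbol as the dedicated subunits, were followed here among the 24054 genes of the table, and all 5 were among the 11865 genes tested.

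The mRNA was measured by RNA-seq in soleus muscle (SOL), a hindlimb muscle rich in slow fibers, of 4 MI4KO mice and 4 flox mice. In MI4KO mice floxed Irf4, the gene of an interferon regulatory transcription factor, is deleted by Cre expressed from Myl1, and the flox mice were the floxed controls. All 8 were male, C57BL/6 and, according to the labels, on a high fat diet, and their age is not given in the sources used here. Myl1-Cre acts in muscle fibers, so other cells of the muscle keep Irf4. Myl1 is itself one of the fast fiber markers used below, and how far Irf4 was deleted in slow fibers was not measured. In a bulk sample fewer cells of a type and less RNA per cell cannot be told apart.

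The values are CPM, read counts divided by library size, scaled by TMM, a trimmed-mean method that sets aside extreme genes, and each mouse had 13417512 to 16384565 reads in the table. Irf4 was at 0.686, 1.46, 1.58 and 1.68 in flox mice 1 to 4 and at 0.725, 0.840, 0.266 and 1.03 in MI4KO mice 1 to 4. The groups overlapped, because flox mouse 1 was as low as MI4KO mice. The flox and MI4KO means were 1.35 and 0.715, and their ratio was 0.530. The limma fit on log2(value + 1) understates changes of low genes. Its log2 fold change was −0.45 (SE 0.20, limma unadjusted p = 0.0402, adjusted p = 1.0, exact two-sided permutation p = 0.114). These values rest on 4 to 23 reads a mouse. Flox mouse 1 also stood apart by liver transcripts, with all 15 liver markers highest in it and a sum of 198 against 4.57 to 23.9 in the other 7 mice. MI4KO mouse 3 stood apart from MI4KO mice 1 and 2. Its reads differed from theirs with a chi-square per degree of freedom of 48.5 and 52.4, while pairs without it had 6.06 to 32.7. With the remaining mice it had 21.8 to 26.1, inside that range. Its median, 24.9, was below those of MI4KO mice 1 and 2 (30.0 and 28.6). Its lowest value with any mouse was 21.8, against 6.06 to 10.5 for the others. The neutrophil marker sum of MI4KO mouse 3 was 6.38 against 1.43 to 2.36 in the other mice. Of the 5 neutrophil markers measured, 4 were highest in it, but only 1 had a mean value of at least 1, so this sum is near the floor. Both slow fiber markers (summed value 36151 to 47616) and fast fiber markers (48528 to 64678) were abundant in all 8 mice.

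The 5 genes lie apart from each other in the genome, on GRCm38 with GENCODE M21 annotation. Phka1 (chrX:102513975-102644246, minus strand) and Phka2 (chrX:160502166-160598878, plus strand) are both on the X chromosome. Phkb is at chr8:85840959-86061376 on the plus strand, Phkg1 at chr5:129863421-129898549 on the minus strand and Phkg2 at chr7:127573340-127583307 on the plus strand. Reads of 50 bases can tell the paralogs apart, since no stretch of 50 bases was shared between any pair of subunits, and the longest identical run was 27 bases for Phka1 and Phka2 and 14 bases for Phkg1 and Phkg2. Both γ genes, however, overlap a gene on the opposite strand. Of the 50-base stretches of Phkg1, 24.99% are also in Sumf2, and of those of Phkg2, 34.5% are also in Ccdc189. The library kit marks strand, but whether counting used it is not stated in the sources used here, so the γ values may include reads of these neighbors. Sumf2 itself was at 4.96 to 8.38, and the row named Gm166, a synonym of Ccdc189 in RefSeq, at 1.56 to 3.52. Phka2 overlaps the antisense gene Gm15243 by 115 exon bases. Of the 2325 stretches of Phkg1, 69 are also in other genes on the same strand, which strand cannot resolve.

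The sequence before the start sites differed in composition between the subunits. Over RefSeq windows of 300 bases (GRCm38.p6, 250 bases before the start site and 50 after), Phkb held 38 CpG dinucleotides, Phka1 25, Phka2 23 and Phkg2 11, while Phkg1 held 2. The median of all 32841 windows was 7, and 23.3% held 2 or fewer. The Phkg1 window (chr5:129879039-129879338) lies inside the GENCODE span of the gene, which on the minus strand begins at 129898549. The 2 annotations thus place its start differently, and the Phkg1 counts hold for the RefSeq start only. The E-box, CANNTG on either strand, is the core recognized by basic helix-loop-helix factors, including the myogenic ones. Phkg1 had 5 matches, of which 2 overlap, and 2.09% of all windows had 5 or more, while Phka1 had 2, Phkb and Phkg2 had 1 each and Phka2 had none. At least 1 match was found in 72.3% of all windows. The narrower form CAGCTG, counted among these matches, was found in Phka1 (38 bases before the start) and Phkb (15 bases after it), and in 16.3% of all windows. The interferon response element GAAANNGAAA, searched because Irf4 belongs to that factor family, was in none of the 5 windows and in 3.44% of all windows, which says only that these letters are not there. The stretches free of annotated exons are shown for the muscle forms Phka1 and Phkg1, which differ in CpG number, and for Phkg2 as the other form of γ, with CANNTG in capitals. The match of Phkg1 nearest its RefSeq start site, and the CAGCTG of Phka1, lie outside these stretches.
Phka1, chrX:102644302-102644496, minus strand: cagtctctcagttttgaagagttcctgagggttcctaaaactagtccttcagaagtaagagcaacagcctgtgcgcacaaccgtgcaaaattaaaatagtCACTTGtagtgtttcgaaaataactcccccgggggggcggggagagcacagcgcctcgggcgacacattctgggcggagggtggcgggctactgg
Phkg1, chr5:129879135-129879338, minus strand: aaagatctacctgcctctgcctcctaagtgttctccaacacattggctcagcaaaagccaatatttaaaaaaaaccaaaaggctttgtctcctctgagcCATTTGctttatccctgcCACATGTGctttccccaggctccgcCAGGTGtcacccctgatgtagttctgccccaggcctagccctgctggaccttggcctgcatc
Phkg2, chr7:127573117-127573339, plus strand: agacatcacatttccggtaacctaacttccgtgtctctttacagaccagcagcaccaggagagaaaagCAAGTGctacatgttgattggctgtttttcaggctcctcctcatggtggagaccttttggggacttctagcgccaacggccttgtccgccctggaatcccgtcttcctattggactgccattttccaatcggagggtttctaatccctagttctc

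The muscle forms made up most of the subunit mRNA in SOL of both groups. Per kilobase of the longest coding transcript, the mean level over the 8 mice was 37.5 ± 5.30 for Phkg1, 25.8 ± 3.77 for Phka1, 24.8 ± 2.04 for Phkb, 5.26 ± 0.525 for Phkg2 and 2.37 ± 0.246 for Phka2 (SD, n = 8). On this length Phka1 (22.4 to 33.3), Phkb (21.6 to 27.3) and Phkg1 (27.99 to 43.8) overlapped their neighbors in the order. The order of these 3 depended on the length used. Per kilobase of the union of exons the means were 25.2 for Phka1, 17.9 for Phkb and 13.7 for Phkg1, and per kilobase of the median coding transcript 26.1, 131.5 and 114.2, while Phkg2 and Phka2 were the lowest in this order with all 3 lengths. These other lengths for the order were chosen after seeing the data. Among 11080 genes ranked by level per kilobase of the longest coding transcript, Phkg1 was at percentile 87.7, Phka1 at 83.3, Phkb at 82.7, Phkg2 at 50.6 and Phka2 at 31.9.

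**Figure D1:**
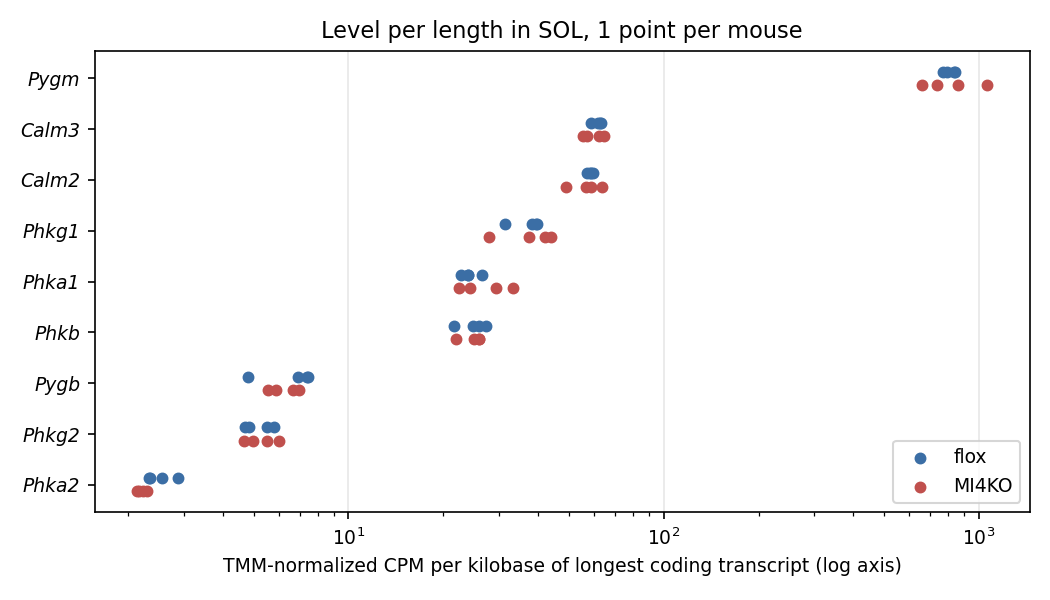
Level per kilobase of the longest coding transcript (log axis, TMM-normalized CPM per kilobase) of the 5 subunits, Calm2, Calm3 and the glycogen phosphorylase genes Pygm and Pygb, with 1 point per mouse (blue, flox; red, MI4KO). Phkg1, Phka1 and Phkb lie between 21.6 and 43.8, Phkg2 and Phka2 lie between 2.14 and 6.01, and Pygm lies above all of them.

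Phka1 supplied 89.3% to 93.6% of the α mRNA per length. The share was 90.5% ± 1.196 in flox and 92.4% ± 1.19 in MI4KO SOL (SD, n = 4), and the groups overlapped. Phkg1 supplied 84.3% to 89.3% of the γ mRNA, at 87.6% ± 2.23 in flox and 87.6% ± 1.36 in MI4KO SOL (SD, n = 4). With other length corrections the Phka1 share stayed between 90.8% and 93.8%, and the Phkg1 share ranged from 84.8% to 95.2%. The ratios to β were not fixed by the data. The summed α level was 1.01 to 1.37 times that of β per longest transcript, 1.33 to 1.83 times with the union of exons and 0.194 to 0.263 times with the median transcript. For the summed γ level these ratios were 1.49 to 1.90, 0.782 to 0.987 and 0.778 to 1.01. The partners were higher on this longest length. The calmodulin genes Calm2 and Calm3 were at 57.8 and 60.8 per kilobase, and Pygm, the muscle glycogen phosphorylase that the kinase acts on, was at 819.5, or 29.3 to 40.9 times Phkb within each mouse, on the longest transcripts.

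Loss of Irf4 in muscle left no subunit past the study's limits of a 1.5-fold change with p under 0.05. The study applied these limits with edgeR, and here they were applied to limma on log2(value + 1). The counts are therefore not like for like with those of the study. Here 26 of 11865 genes (0.219%) passed them, 7 higher (0.059%) and 19 lower (0.16%) in MI4KO SOL. No subunit had an unadjusted limma p under 0.05, against 399 of all genes (3.36%). No gene had an adjusted p under 0.05 by limma, and none by edgeR (363 at unadjusted p under 0.05, 3.06%) or DESeq2 (248, 2.09%). The 5 log2 fold changes ran from −0.17 to 0.15 with a median of 0.01, and the median of all genes tested was −0.01. The 95% limma intervals of all 5 together span 0.766-fold to 1.31-fold, so none reaches a 1.5-fold change in either direction.

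**Figure D2:**
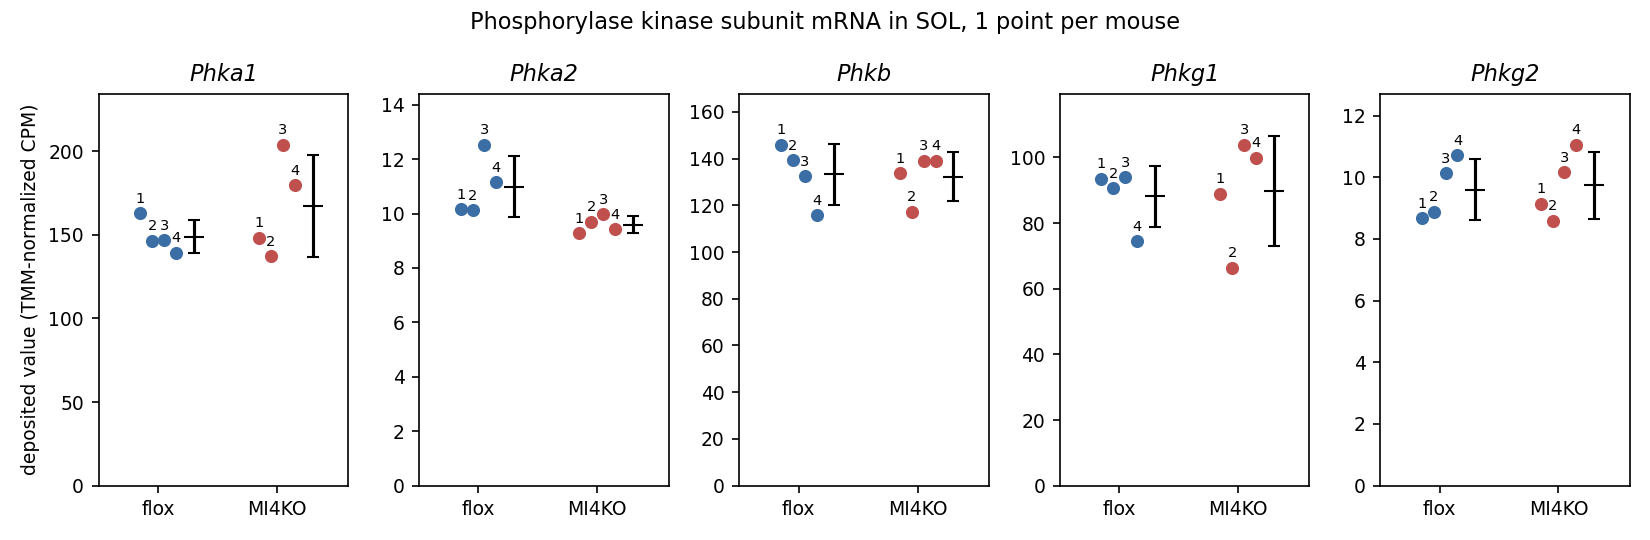
Deposited value (TMM-normalized CPM, axes from 0) of each subunit in each SOL, with mouse numbers above the points and the group mean ± SD beside them (n = 4). The groups overlap for Phka1, Phkb, Phkg1 and Phkg2, and the 4 MI4KO points of Phka2 lie just under the lowest flox point.

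Phka1, the muscle α subunit, was at 163, 146, 147 and 139 in flox mice 1 to 4. In MI4KO mice 1 to 4 it was at 148, 137, 204 and 179. MI4KO mice 3 and 4 were above every flox mouse and MI4KO mouse 2 was below every one, so the spread widened from 9.92 to 30.3 around means of 148.8 and 167.2 (SD, n = 4). The log2 fold change was 0.15 (SE 0.11, 95% interval −0.09 to 0.39, limma adjusted p = 1.0, exact two-sided permutation p = 0.343). The value rested on single mice, at a log2 fold change of 0.05 without MI4KO mouse 3 and of 0.24, with an unadjusted limma p under 0.05, without MI4KO mouse 2.

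Phka2, the liver form of α, was the one subunit whose groups did not overlap. It was at 10.2, 10.1, 12.5 and 11.1 in flox mice 1 to 4 and at 9.29, 9.70, 9.97 and 9.43 in MI4KO mice 1 to 4. Of all genes tested 246 (2.07%) had groups that did not overlap, 202 of them (1.7%) with MI4KO lower and 44 (0.371%) with MI4KO higher. The means were 10.99 ± 1.13 and 9.60 ± 0.303 (SD, n = 4), and the log2 fold change was −0.17 (SE 0.10, 95% interval −0.38 to 0.03, limma unadjusted p = 0.0947, adjusted p = 1.0). Its exact two-sided permutation p was 0.0286, the smallest that 4 against 4 mice allow. The gap between the groups, 0.156, was below the value of 3 reads in any mouse (0.181 to 0.225). Each mouse had 128 to 167 Phka2 reads, and the exact 95% counting intervals of the MI4KO mice reached up to 11.03 to 11.7 while those of the flox mice reached down to 8.55 to 10.7. These intervals cover counting error only.

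The separation of Phka2 depended on the scaling. With the values rescaled to equal totals, flox mice ran from 10.1 to 11.7 and MI4KO mice from 9.17 to 10.6, and the exact two-sided permutation p was 0.0857. With median-of-ratios factors the ranges were 10.08 to 12.05 and 9.42 to 10.09, with an exact two-sided permutation p of 0.0571. In both, 3 of 4 MI4KO mice were below every flox mouse, and the direction was the same. The summed value of 6 endothelial markers was 338 to 415 in flox and 258 to 361 in MI4KO SOL, and that of 10 slow fiber markers 39217 to 47616 and 36151 to 44601. Over the 8 mice, Phka2 had a Pearson r of 0.68 with the first sum and 0.67 with the second. These were the highest among the cell type lists, and r was 0.60 for blood, 0.52 for Schwann cell and 0.50 for adipocyte markers. The lowest r was −0.28, for neutrophil markers. The part of these sums in the Phka2 values was not tested. In flox mouse 1, the mouse with liver transcripts, Phka2 was the second lowest of the flox mice, and without this mouse the log2 fold change was −0.21.

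**Figure D3:**
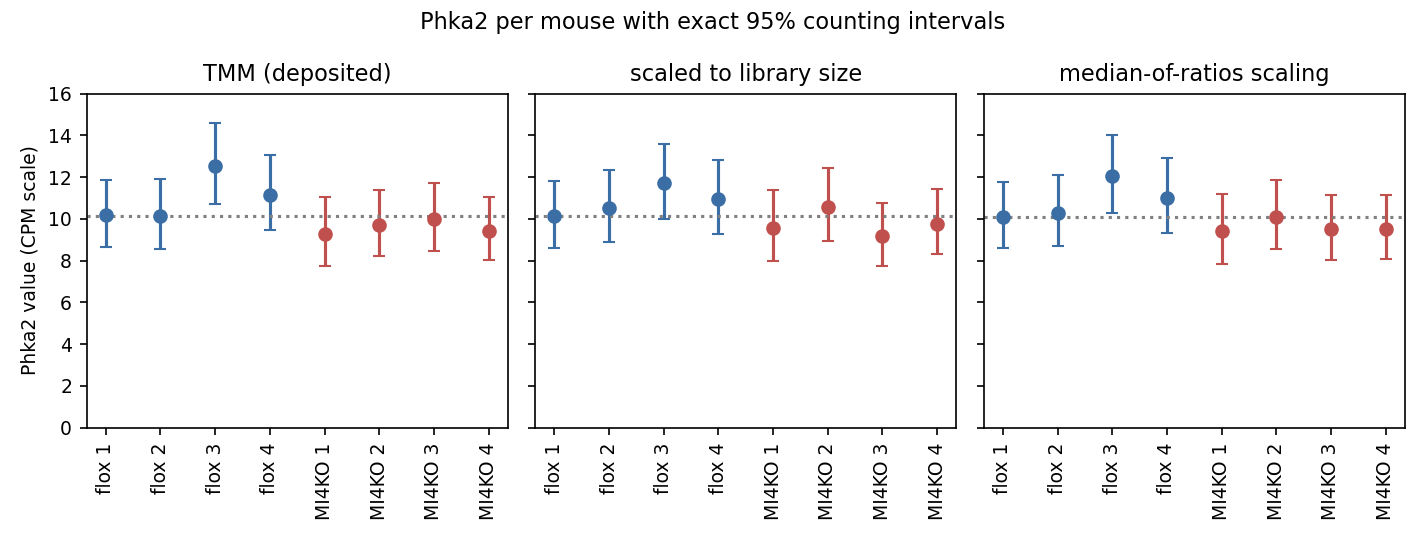
Phka2 value (CPM scale, axis from 0) in each mouse under the deposited TMM scaling, scaling to equal library size and median-of-ratios scaling, with exact 95% Poisson counting intervals as bars and the lowest flox value as a dotted line. All 4 MI4KO points lie under the line with TMM, and 3 of 4 lie under it with each of the other scalings.

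Phkb, which encodes the β subunit of both tissues, was at 146, 139, 133 and 116 in flox mice and at 134, 117, 139 and 139 in MI4KO mice. The MI4KO values all lay inside the flox range. The means were 133.4 ± 13.03 and 132.3 ± 10.3 (SD, n = 4), and the fold change had a 95% interval of 0.872 to 1.13 (exact two-sided permutation p = 0.914).

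Phkg1, the catalytic subunit of muscle, was at 93.6, 90.6, 93.9 and 74.5 in flox mice and at 89.0, 66.5, 103.9 and 99.96 in MI4KO mice. The low values were those of flox mouse 4 and MI4KO mouse 2, and MI4KO mice 3 and 4 were the highest, as for Phka1. The means were 88.1 ± 9.24 and 89.8 ± 16.8 (SD, n = 4), with a 95% interval of 0.831-fold to 1.22-fold (exact two-sided permutation p = 0.8286). Phkg2, the other catalytic subunit, was at 8.67, 8.88, 10.1 and 10.7 in flox mice and at 9.14, 8.60, 10.2 and 11.1 in MI4KO mice. Its groups covered nearly the same range, with means of 9.60 ± 0.984 and 9.74 ± 1.094 (SD, n = 4) and a 95% interval of 0.860-fold to 1.19-fold (exact two-sided permutation p = 0.800).

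**Figure D4:**
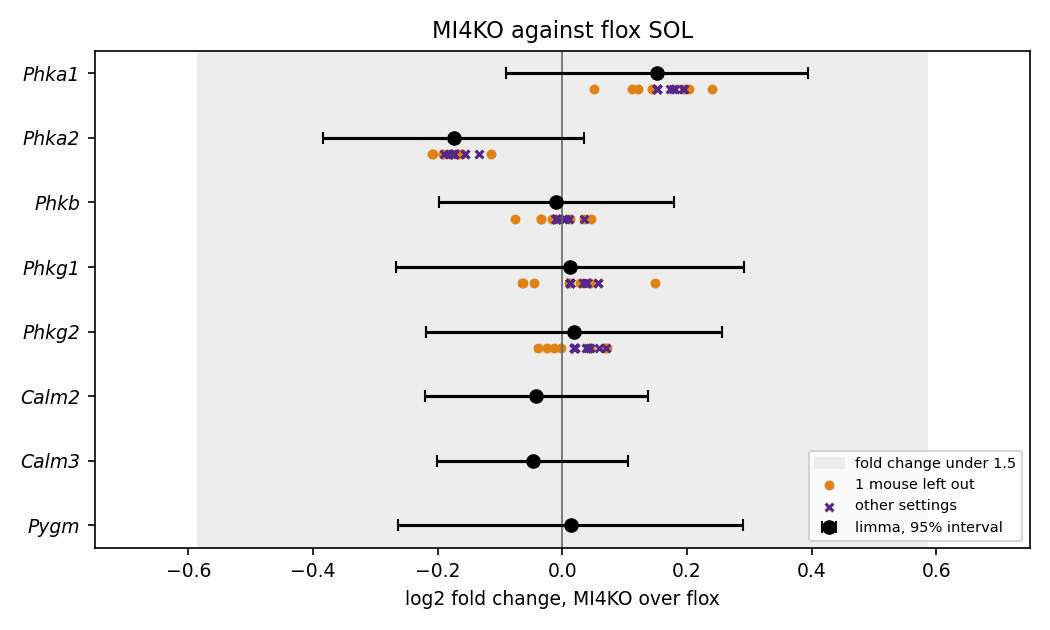
Log2 fold change of MI4KO over flox SOL for the 5 subunits, Calm2, Calm3 and Pygm (black, limma with 95% interval), with the subunits' values when 1 mouse is left out (orange) and under other settings (purple crosses). All intervals lie inside the gray band, which marks changes of less than 1.5-fold.

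The mouse numbers in the labels fall into 2 ranges, the lower with flox mouse 1 and MI4KO mice 1 and 2, and the higher with flox mice 2, 3 and 4 and MI4KO mice 3 and 4. What the ranges stand for is not given in the sources used here. Within the lower range the difference of MI4KO from flox on the log2(value + 1) scale was −0.19 for Phka1, −0.22 for Phkb and −0.28 for Phkg1, and within the higher range it was 0.41, 0.11 and 0.24. These 3 genes thus differed in opposite directions in the ranges. Phka2 was lower in MI4KO mice in both (−0.09 and −0.19) and Phkg2 was higher in both (0.03 and 0.09). The lower range holds a single flox mouse, so no test was made within it.

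The muscle α and γ subunits and their substrate followed each other from mouse to mouse, whichever the group. On log2(value + 1), over 8 mice and 15 pairs tested by permutation with Benjamini-Hochberg adjustment, Phkg1 and Pygm had a Pearson r of 0.82 (exact p = 0.00407, adjusted p = 0.0203) and a Spearman rho of 0.98 (exact p = 0.000397, adjusted p = 0.00595). Phka1 and Pygm had r = 0.89 (exact p = 0.00243, adjusted p = 0.0182) and rho = 0.81 (exact p = 0.0218, adjusted p = 0.109). Phka1 and Phkg1 had r = 0.78 (exact p = 0.000546, adjusted p = 0.00818) and rho = 0.88 (exact p = 0.00724, adjusted p = 0.0543). Without the 2 mice farthest from the median of the first gene, r was 0.92, 0.68 and 0.79 for these pairs. With the group means removed, r was 0.82, 0.96 and 0.84. Without MI4KO mouse 3, an alternative chosen after seeing the data, r was 0.86, 0.72 and 0.77 over 7 mice. The share of all genes that reach such r with a subunit was not counted. The genes most like Phka1 had r of 0.96 to 0.97 with it and those most like Phkg1 0.94 to 0.97, and Pygm was not among them.

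MI4KO mouse 3 was highest and MI4KO mouse 2 lowest for Phka1, Phkg1 and Pygm alike. The same mice had the highest and lowest sum of 11 fast fiber markers, 64678 and 48528, and over 8 mice Phkg1 had r = 0.83 and Phka1 r = 0.76 with that sum. Without MI4KO mouse 3 these were 0.79 and 0.61. With the neutrophil sum, highest in the same mouse, Phka1 had r = 0.80 and Phkg1 r = 0.47, and 0.36 and 0.17 without it. The part of either sum in the correlations was not tested, and the number ranges, of 3 and 5 mice, are too small for a correlation within them. Phkb and Phkg1 had r = 0.88 (exact p = 0.0277, adjusted p = 0.104), which fell to 0.21 without the 2 farthest mice and so rests on them. With the group means removed it was 0.88. Phka1 and Phkb had r = 0.63 (exact p = 0.0407, adjusted p = 0.122). For that pair r was 0.90 without the 2 farthest mice and 0.71 with the group means removed. Phka2 and Pygm had r = 0.12 (exact p = 0.698, adjusted p = 0.805), and Phka2 and Phka1 r = −0.30 (exact p = 0.504, adjusted p = 0.711).

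**Figure D5:**
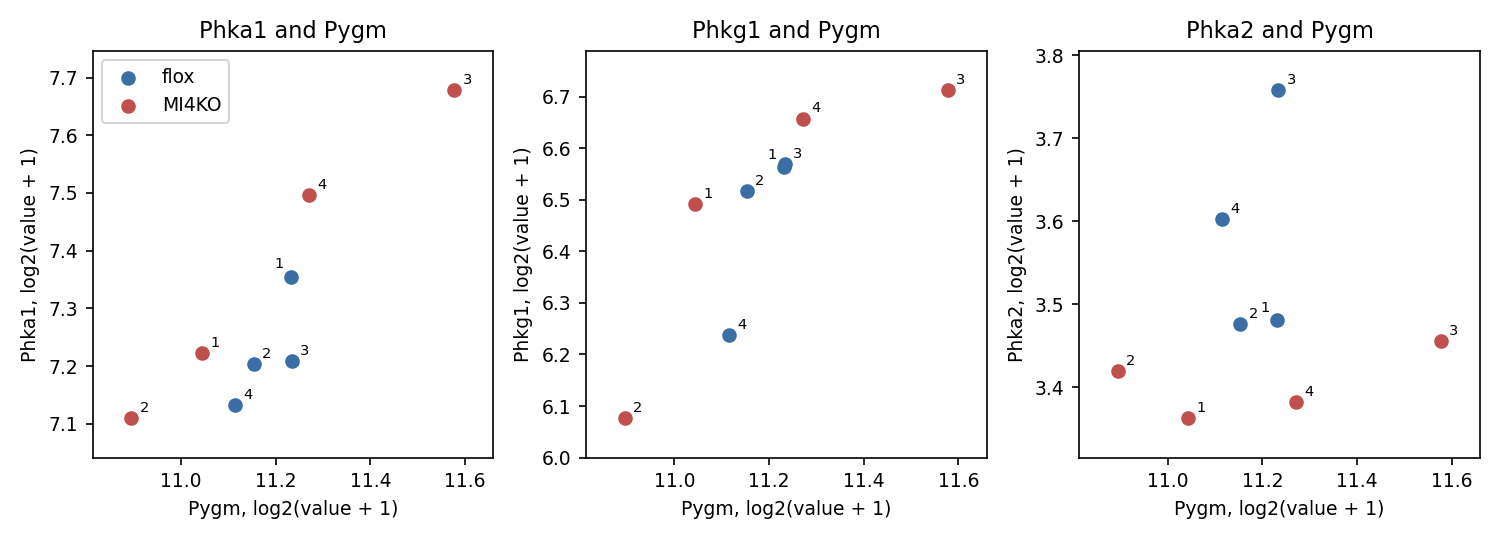
Log2(value + 1) of Phka1, Phkg1 and Phka2 against that of Pygm, with 1 point per mouse and mouse numbers beside the points (blue, flox; red, MI4KO). Phka1 and Phkg1 rise with Pygm (r = 0.89 and 0.82), from MI4KO mouse 2 at the lower left to MI4KO mouse 3 at the upper right, and Phka2 does not follow (r = 0.12).

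Among the 11864 other genes tested, those with the profile most like each subunit over the 8 mice are listed by Pearson r, as a description. For Phka1 they were Fam160a1 (r = 0.97), Eya1 (0.97), a transcription coactivator, and Stat5b (0.96), a transcription factor of growth hormone signaling. For Phka2 they were Afap1l1 (0.96), Gart (0.96), an enzyme of purine synthesis, and Atp6ap1 (0.95), an accessory subunit of the proton pump of lysosomes. For Phkb they were Rlim (0.98), a ubiquitin ligase, Mbnl1 (0.95), a splicing regulator, and Tmpo (0.94), a protein of the nuclear lamina. For Phkg1 they were Galnt11 (0.97), Ap1g2 (0.95) and Cse1l (0.94), a nuclear export factor, and for Phkg2 Nisch (0.97), Anks1 (0.97) and Slc19a1 (0.95), the folate carrier.

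The genes around the kinase were taken from 6 lists. Of their 54 genes 49 were tested and none passed 1.5-fold with p under 0.05, which 0.219% of all genes passed, so a list of this size tells nothing apart from the background. The median log2 fold change was −0.00, with 23 genes higher and 26 lower, and the median of all genes was −0.01. For the δ subunit, the log2 fold change was −0.04 (SE 0.08) for Calm2 and −0.05 (SE 0.07) for Calm3. Among 4 tested substrates, phosphorylases and glycogen synthases, the values ran from −0.23 (SE 0.18) for Pygl, the liver phosphorylase, to 0.01 (SE 0.13) for Pygm. Pygl had only 7 to 24 reads a mouse. Among 5 partners of glycogen breakdown the values ran from −0.01 (SE 0.08) for Gaa, the lysosomal glucosidase, to 0.12 (SE 0.16) for Pgm1, a phosphoglucomutase. Pgm1 was low, at 2.24 to 3.75 (31 to 58 reads a mouse). The phosphoglucomutase named Pgm2 was at 327 to 452, with a log2 fold change of 0.03 (SE 0.09).

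The inputs that switch the kinase on were 14 tested genes of the cyclic AMP route and 10 of calcium handling. In the first, Adcy2, an adenylyl cyclase, had the highest value, 0.29 (SE 0.12, exact two-sided permutation p = 0.0571), and Prkar2b, a regulatory subunit of protein kinase A, the lowest, −0.27 (SE 0.23). Prkar2b had only 11 to 45 reads a mouse. In the second, Cacna1s, the voltage sensor of muscle, had the highest value, 0.06 (SE 0.12), and Cacng1, a subunit of the same channel, the lowest, −0.19 (SE 0.08, exact two-sided permutation p = 0.0857). Adcy2 and Cacng1 were the 2 of 49 genes with an unadjusted limma p under 0.05, a share near the 3.36% of all genes, their groups overlapped, and neither passed after adjustment. Among 13 tested genes of dephosphorylation, which reverses the action of the kinase, the values ran from −0.20 (SE 0.22) for Ppp1r3e to 0.64 (SE 0.36, exact two-sided permutation p = 0.171) for Ppp1r3c, which encodes the glycogen-targeting subunit PTG. Ppp1r3e had only 6 to 26 reads a mouse. Ppp1r3c was at 283, 230, 274 and 222 in flox mice and at 293, 260, 1128 and 277 in MI4KO mice. MI4KO mouse 3 alone was far above the rest, and without it the log2 fold change was 0.14 (SE 0.09). It passed the limits with edgeR over all mice and with limma without MI4KO mouse 2.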

How the data were processed

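The 8 SOL libraries were made with a stranded mRNA kit and sequenced as single reads of 50 bases. The authors mapped reads to UCSC transcripts (mm10) with Bowtie2 2.1.0, estimated expression with RSEM 1.2.15 and applied TMM, and the deposited signal values are TMM-normalized CPM. In each mouse 100% of nonzero values were multiples of the value of 1 read (within 0.02 reads), so reads were recovered for count tests. The authors' deposited score columns (fold change, p-value and false discovery rate of their comparison) were not used. Genes reaching a value of 1 in 4 or more of the 8 mice were tested with limma 3.58.1 with a trend on log2(value + 1) (R 4.3.3), a scale that understates changes of low genes, with Benjamini-Hochberg adjustment over all genes tested. The limma fit was tested on simulated data, with changes larger than those of the subunits. Alternatives were pseudocounts of 0.5 and 0.1, other filters, scalings and limma settings, edgeR 4.0.16, DESeq2 1.42.0, the number range as a covariate and each mouse left out. The scaling of the Phka2 permutation test was an alternative chosen after seeing the data. Single genes were compared by exact two-sided permutation tests (scipy 1.17.1). The named genes were the subunits, Irf4, Calm2, Calm3, Pygm, the highest and lowest gene of each list and the 3 genes most like each subunit, and 1 further gene of the rule is not reported here. Members and lists were chosen with earlier results of these data known. Separate animals were the replicates, and no libraries were alike within sampling noise. Sequences came from GRCm38 and RefSeq.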

Additional observations from a re-analysis of the deposited data

Results flagged for a closer look

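Phkg1 in flox mouse 4 was set apart from the other flox mice. Its log2(value + 1) was 6.24, the nearest flox value was 6.52, and this gap made up 0.844 of the group's range, past Dixon's critical value for 4 samples. Of 24 groups examined (12 results in 2 groups each) this was the only one past the critical value, and chance gives about 1 in 20. Without this mouse the log2 fold change of Phkg1 was −0.07.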

How the results depend on the processing

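Phka1 stayed higher and Phka2 lower in MI4KO SOL in all 19 alternatives, with mouse-left-out log2 fold changes of 0.05 to 0.24 and −0.21 to −0.11, and the lowest unadjusted p was 0.0427 for Phka1 (without MI4KO mouse 2) and 0.0399 for Phka2 (without the filter). No adjusted p of a subunit was under 0.954. The direction of the other subunits was not fixed. Phkb was at 0.034 with library-size scaling, 0.011 with median-of-ratios scaling, 0.0014 with edgeR and 0.0039 with DESeq2, and mouse-left-out values were −0.076 to 0.047 for Phkb, −0.065 to 0.15 for Phkg1 and −0.039 to 0.071 for Phkg2. The ratio of Phka2 means was 0.873, and 0.903 with library-size scaling and 0.887 with median-of-ratios scaling, and with both the exact p was above 0.05. The cause was not tested.

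Genes past the limits numbered 26, and 41 and 71 with pseudocounts of 0.5 and 0.1, 12 without a filter, 13 with robust limma, 65 with edgeR and 51 with DESeq2, and 18 to 57 with 1 mouse left out (57 without MI4KO mouse 4). Pathway genes past the limits numbered 0, and 1 (Ppp1r3c) with edgeR and 0 to 1 with 1 mouse left out. The mean Phka1 share, 91.5%, became 93.6% with the union of exons and 93.8% with no length correction, and the Phkg1 share, 87.6%, became 84.8%, 95.2% (median transcript length) and 90.1%. With 1 mouse left out they were 91.2% to 91.8% and 87.3% to 88.0%. At 126 to 183 reads a mouse the counting error of Phka2 and Phkg2 was near 8% of the value, so smaller differences in single mice were not detectable. No paired analysis was possible because the mouse numbers of the groups share none.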
